A study of Mus musculus with 6 samples.

Results

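The miR-181 family of the mouse is made from 6 precursor genes in 3 genomic clusters: Mir181a-1 with Mir181b-1, Mir181a-2 with Mir181b-2, and Mir181c with Mir181d. Their precursors were followed here in small RNA libraries of bone marrow cells, described by the submitters as lineage-negative (Lin-), the fraction depleted of mature blood cells. The genes were found by matching the position of each counted feature to the miRNA genes of these names in GENCODE release M21 on GRCm38. All 6 were found, among 1823 features with at least 1 read in any library, of which 912 were annotated as miRNAs. There were 3 libraries labelled Mat KO, taken as carrying a knockout of the imprinted Dlk1-Gtl2 locus on the chromosome inherited from the mother, and 3 libraries of wildtype (WT) mice. The sources used here give neither the extent of the deletion nor the age, sex or strain of the mice. The labels do not state that each library comes from its own animal, so p-values here reflect library-to-library spread, which may be technical. The Dlk1-Gtl2 locus lies on another chromosome than any of the 6 genes, so the comparison asks whether precursors outside the mutated locus differed between the genotypes.

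A miRNA is cut from a longer transcript as a hairpin, the precursor, which is then trimmed to a short duplex. The arm that is loaded into an Argonaute protein finds its target messenger RNAs mainly by its seed, the bases near its 5′ end. In the mouse, miR-181 is known from lymphoid development: expressed in blood progenitors it raises the output of B-lineage cells, and in developing T cells it tunes the strength of T cell receptor signalling. The cluster of Mir181a-1 and Mir181b-1 is the main source of miR-181 in thymocytes and is needed for natural killer T cells. Both members of a cluster are thought to be cut from the same primary transcript.

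The mature arms are shown because the seed defines the family, with the seed (bases 2 to 8 from the 5′ end) in capitals. The sequences are those of RefSeq on GRCm38.p6. The 4 different 5p arms were these.
mmu-miR-181a-5p: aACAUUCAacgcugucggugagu
mmu-miR-181b-5p: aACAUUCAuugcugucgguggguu
mmu-miR-181c-5p: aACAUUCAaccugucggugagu
mmu-miR-181d-5p: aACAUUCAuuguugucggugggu
All 4 had the seed ACAUUCA, and no other mature miRNA among the 1679 in the RefSeq table had it. Outside the seed they fell into pairs. The arms of miR-181a and miR-181c were 1 edit apart and those of miR-181b and miR-181d were 2 edits apart, while miR-181a and miR-181b differed by 4 edits. Each cluster therefore held 1 arm of each kind. The 5p arm of Mir181a-1 was identical to that of Mir181a-2, and the same held for Mir181b-1 and Mir181b-2.

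The 3p arms, from the other side of the hairpin, were less alike and are shown because they separate the copies.
mmu-miR-181a-1-3p: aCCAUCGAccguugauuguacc
mmu-miR-181a-2-3p: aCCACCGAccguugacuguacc
mmu-miR-181c-3p: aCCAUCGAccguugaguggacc
mmu-miR-181b-1-3p: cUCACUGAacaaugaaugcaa
mmu-miR-181b-2-3p: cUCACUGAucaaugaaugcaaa
mmu-miR-181d-3p: cCCACCGGgggaugaauguca
The 6 arms had 4 different seeds. miR-181a-1-3p and miR-181c-3p shared CCAUCGA, both miR-181b copies shared UCACUGA, and miR-181a-2-3p and miR-181d-3p each had a seed that no other mature miRNA of the table had.

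The hairpins are shown because the reads were counted over them, with the mature arms in capitals.
Mir181a-1: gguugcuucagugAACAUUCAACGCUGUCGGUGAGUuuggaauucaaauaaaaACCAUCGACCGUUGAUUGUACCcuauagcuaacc
Mir181b-1: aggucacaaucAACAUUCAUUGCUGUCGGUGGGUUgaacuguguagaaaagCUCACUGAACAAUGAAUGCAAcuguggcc
Mir181a-2: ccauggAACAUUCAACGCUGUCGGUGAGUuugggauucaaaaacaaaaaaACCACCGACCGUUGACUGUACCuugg
Mir181b-2: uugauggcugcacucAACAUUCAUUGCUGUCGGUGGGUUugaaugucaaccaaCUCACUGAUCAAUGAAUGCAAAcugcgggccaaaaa
Mir181d: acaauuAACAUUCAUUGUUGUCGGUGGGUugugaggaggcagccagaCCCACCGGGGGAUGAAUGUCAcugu
Over the whole hairpin Mir181b-1 and Mir181b-2 were 73.4% identical and Mir181a-1 and Mir181a-2 71.7%, and the other 8 pairs of these 5 hairpins were 53.9% to 64.3% identical. A read that spans the loop can thus be placed on 1 gene, whereas a read confined to a shared 5p arm cannot. The sources used here do not say how the authors placed reads with several matches. The stretch between the arms, which holds the loop, was 14 nt in Mir181b-2 and 21 nt in Mir181a-2, with 16 to 18 nt in the other 4 genes.

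The 3 clusters sit in different genomic settings (GRCm38, GENCODE M21). Mir181a-1 (chromosome 1, 137966455 to 137966541, plus strand) and Mir181b-1 (137966639 to 137966718) are 97 nt apart and lie within an intron of the long non-coding gene Gm4258. An exon of the long non-coding A430106G13Rik, on the same strand, covers 11 nt of Mir181a-1 and the whole of Mir181b-1, and the long non-coding Gm26936 runs over both on the opposite strand. Mir181a-2 (chromosome 2, 38852735 to 38852810, plus strand) and Mir181b-2 (38853830 to 38853918) are 1019 nt apart and lie antisense within the nuclear receptor gene Nr6a1, with no overlap of its exons. Mir181b-2 also lies opposite an exon of Gm44144, a transcript that GENCODE marks as still to be tested by experiment. Mir181d (chromosome 8, 84178716 to 84178787, minus strand) and Mir181c (84178873 to 84178961) are 85 nt apart and lie in an intron of Nanos3, an RNA-binding protein gene, on its strand. The features were 72 to 89 nt long, and no other counted feature overlapped any of them.

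The 6 libraries held 45398303 to 53299322 counts, of which miRNA features took 0.871% to 1.13%. Levels are given as CPM, the read count scaled to the library's total. Values of single libraries are listed in the order of replicates 1, 2 and 3. The snoRNA DQ267100 of the Dlk1-Gtl2 locus, which checks the labels, had 2, 0 and 1 reads (KO) and 59, 51 and 52 reads (WT). Fragments of the length of snoRNAs plus adaptors (170 to 370 bp) were cut from a gel, a size meant for RNAs longer than a mature miRNA, and the values below are read counts over the precursor's region. KO replicate 2 stood apart by its reads of muscle miRNAs. It had 258 reads of Mir1a-1, 118 of Mir133a-1 and 19 of Mir206, miRNAs of muscle, against at most 7, 0 and 1 in the other KO libraries and at most 9, 1 and 1 in the WT libraries. The genotype estimates, the cluster sums, the partner ratios, the order of levels and the pattern likeness are therefore also given without KO replicate 2. Over all features with enough reads, however, KO replicate 1 was the farthest from the other KO libraries. Its chi-square per degree of freedom was 4034 against replicate 2 and 2004 against replicate 3, with 1040 between KO replicates 2 and 3.

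Mir181a-1 and Mir181b-1 were detected in every library, and Mir181a-1 had the most reads of the family. Mir181a-1 had 376, 1088 and 411 reads (KO) and 366, 592 and 472 (WT). KO replicate 2 was the highest library and WT replicate 1 the lowest, and the genotypes overlapped. Its level was 12.5 ± 7.4 CPM (KO) and 9.73 ± 3.11 CPM (WT) (SD, n = 3 each). Mir181b-1 had 74, 173 and 106 reads (KO) and 92, 138 and 82 (WT), or 2.37 ± 0.91 CPM (KO) and 2.13 ± 0.79 CPM (WT). Replicate 2 was again the highest in both genotypes, and the lowest KO library lay below the lowest WT library. In bulk RNA, fewer cells that make a precursor and less of it per cell cannot be told apart.

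Mir181a-2 and Mir181b-2 followed the same pattern. Mir181a-2 had 289, 832 and 428 reads (KO) and 314, 507 and 442 (WT). Its level was 10.4 ± 5.2 CPM (KO) and 8.59 ± 2.64 CPM (WT) (SD, n = 3 each). KO replicate 2 was above all others, while KO replicates 1 and 3 lay within the range of the WT libraries by CPM. Mir181b-2 had 99, 225 and 129 reads (KO) and 99, 151 and 103 (WT), or 3.04 ± 1.18 CPM (KO) and 2.40 ± 0.80 CPM (WT). KO replicates 1 and 3 again lay between the lowest and highest WT values by CPM.

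Mir181c and Mir181d had fewer reads. Mir181c had 47, 143 and 67 reads (KO) and 40, 75 and 65 (WT), or 1.71 ± 0.93 CPM (KO) and 1.23 ± 0.45 CPM (WT) (SD, n = 3 each). Its 40 reads in WT replicate 1, the smallest count of any member, correspond to 0.750 CPM with an exact 95% Poisson interval of 0.536 to 1.02, which covers counting error only. Mir181d had 102, 173 and 88 reads (KO) and 96, 147 and 97 (WT), or 2.43 ± 0.79 CPM (KO) and 2.32 ± 0.80 CPM (WT). For Mir181d the lowest KO library was replicate 3 and not replicate 1, and the mean of the KO libraries exceeded that of the WT libraries by less than the SD of either.

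**Figure D1:**
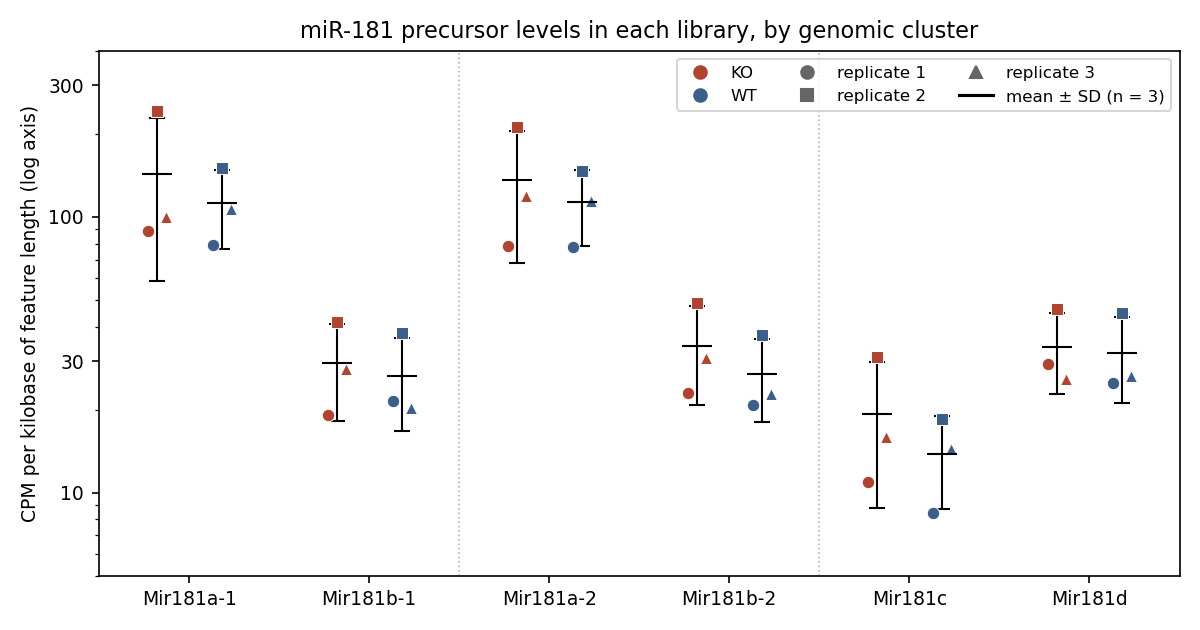
CPM per kilobase of feature length (log axis) of the 6 miR-181 precursors in 3 KO and 3 WT libraries. Points are libraries, with a marker for each replicate number, and bars are the mean ± SD (n = 3). Both miR-181a precursors lie above the other 4, replicate 2 is the highest library of each genotype for every member, and the genotypes overlap for each.

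Levels of different genes were compared per length, as CPM divided by the feature's length in kilobases. The order of the means over the 6 libraries was Mir181a-1 (127.7 ± 60.8), Mir181a-2 (124.6 ± 49.95), Mir181d (33.0 ± 9.9), Mir181b-2 (30.6 ± 10.9), Mir181b-1 (28.1 ± 9.7) and Mir181c (16.5 ± 7.9), each with its SD over 6 libraries. Mir181a-1 and Mir181a-2 were not distinguishable, with Mir181a-1 higher in 4 of 6 libraries (exact sign-flip permutation test, p = 0.906). Reads of their shared 5p arm could have been split between them, which would bring their levels together. The same limit holds for Mir181b-1 and Mir181b-2. Mir181d, Mir181b-2 and Mir181b-1 were also close, and in each neighbouring pair the order held in 4 of 6 libraries (p = 0.25 and p = 0.125, same exact test). The gaps above and below these 3 were wider. Mir181a-2 was 3.67-fold above Mir181d (geometric mean of the libraries) and Mir181b-1 was 1.77-fold above Mir181c, each in 6 of 6 libraries. Both gave p = 0.0312, the smallest 6 libraries allow by this exact two-sided test, and 0.0781 when adjusted over the 5 neighbouring pairs, so neither passed 0.05. The neighbours and their order were taken from the same 6 libraries, so the p-values of this comparison are descriptive only. The order was the same when any library other than KO replicate 2 was left out. Without that library Mir181a-2 came above Mir181a-1, and without division by length Mir181b-2 came above Mir181d. Per length the 2 miR-181a precursors ranked 40 and 41 of the 912 miRNA features, and Mir181c ranked lowest of the 6, at 107.

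No member of the family was called between the genotypes. In edgeR's quasi-likelihood test across 624 features, 1 feature (0.16%) had an adjusted p under 0.05, and it was DQ267100. That call was lost without KO replicate 3 and without any 1 of the WT libraries. All 6 members passed the filter on low counts and none was called, at an unadjusted p under 0.05 either, where the background was 6.41% of the features. The estimates, as log2 fold changes of KO over WT, were 0.43 (SE 0.47, adjusted p = 0.788) for Mir181a-1, 0.22 (SE 0.41, adjusted p = 0.889) for Mir181b-1 and 0.34 (SE 0.43, adjusted p = 0.813) for Mir181a-2. They were 0.41 (SE 0.40, adjusted p = 0.779) for Mir181b-2, 0.55 (SE 0.49, adjusted p = 0.759) for Mir181c and 0.15 (SE 0.38, adjusted p = 0.939) for Mir181d. Each SE was close to the estimate or larger, so these libraries leave room for differences in either direction. The CPM of the genotypes overlapped for all 6 members, whereas they did not overlap for 15.2% of the tested features.

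All 6 estimates were above 0, as were 40.9% of all tested features and 65.4% of the tested miRNA features. The median log2 fold change was 0.37 over the 6 members, 0.19 over the 199 other tested miRNA features and -0.08 over all 624. The directions changed without KO replicate 2. Then 2 of the 6 estimates were above 0, and the median was -0.11. The other 199 tested miRNA features also moved down, with 102 above 0 and a median of 0.036. The members' estimates were -0.17 (SE 0.34) for Mir181a-1, -0.10 (SE 0.41) for Mir181b-1 and -0.13 (SE 0.37) for Mir181a-2. They were 0.06 (SE 0.38) for Mir181b-2, 0.03 (SE 0.42) for Mir181c and -0.15 (SE 0.38) for Mir181d. Without WT replicate 1 the estimate of Mir181d was -0.01, and the members' median was 0.18, against 0.039 over the other tested miRNA features. Without KO replicate 1 all 6 estimates were above 0, with a median of 0.71 against 0.45 over those features. With replicate 2 left out of both genotypes, which was added once the values were known, all 6 estimates were also above 0 and the median was 0.22. The median over the other tested miRNA features was then 0.23. Scaled to the summed reads of all miRNA features, 5 of the 6 were above 0 and Mir181d was at -0.03. The members' median was then 0.17, and the other 199 tested miRNA features had 100 above 0 and a median of 0.002. No alternative brought an adjusted p of any member under 0.298.

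**Figure D2:**
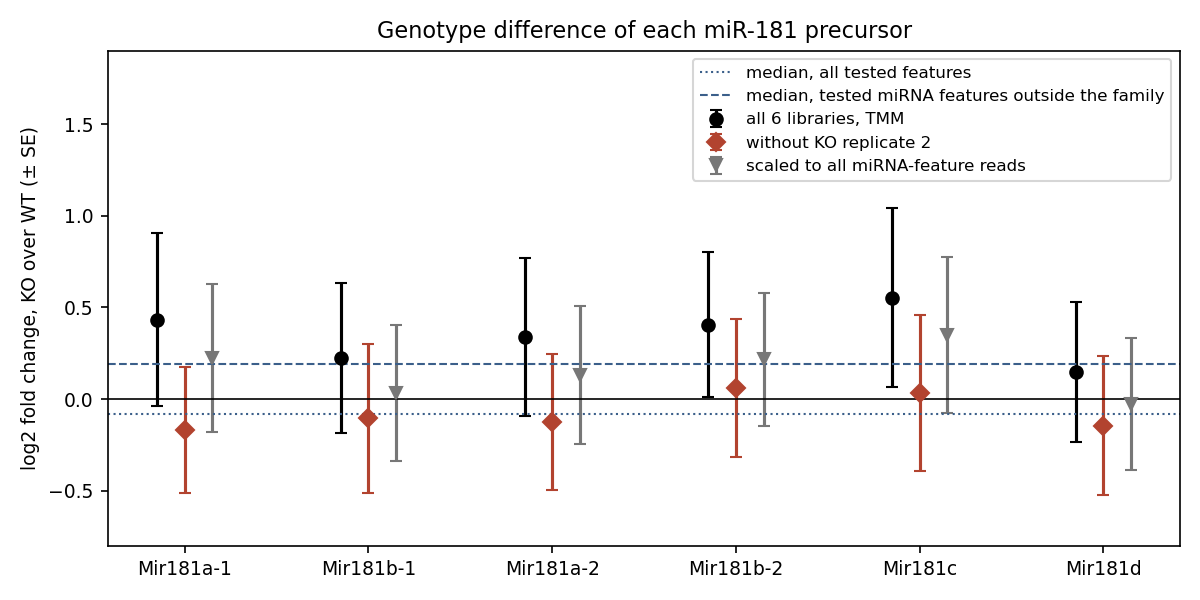
Log2 fold change of KO over WT with its SE for each precursor, from all 6 libraries with TMM scaling (black), without KO replicate 2 (red) and scaled to all miRNA-feature reads (grey). Dashed and dotted lines are the medians of the other tested miRNA features (0.19) and of all tested features (-0.08), both from the fit shown in black. These medians were 0.036 and -0.03 without KO replicate 2, and 0.002 and -0.24 scaled to all miRNA-feature reads. Without KO replicate 2 the estimates lie between -0.17 and 0.06.

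The highest libraries were those of replicate 2 in both genotypes. All 6 members were highest in KO replicate 2 of all libraries, and all 6 were highest in replicate 2 among the WT libraries. On the log2 CPM scale the members in KO replicate 2 exceeded the mean of KO replicates 1 and 3 by 0.79 to 1.40, with Mir181a-1 at the top and Mir181d at the bottom. In WT replicate 2 the excess over WT replicates 1 and 3 was 0.64 to 0.85. The other 199 tested miRNA features moved the same way, with a median excess of 0.47 (quartiles 0.00 and 0.78) in KO replicate 2 and of 0.65 (quartiles 0.18 and 0.95) in WT replicate 2. Of these, 102 (51.3%) were highest in replicate 2 in both genotypes. The 419 tested features that are not miRNAs had medians of -0.22 in KO replicate 2 and -0.16 in WT replicate 2, and 9 of them (2.15%) were highest in replicate 2 in both. The labels give the replicate number no meaning beyond a name.

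The family's share of all miRNA-feature reads was also highest in replicate 2 of each genotype. The 6 members took 0.233%, 0.450% and 0.245% of the miRNA-feature reads (KO) and 0.217%, 0.342% and 0.271% (WT). Some markers of other cells were also highest in KO replicate 2. The 3 muscle markers summed to 7.62 CPM there, against 0.0619 and 0.148 CPM in the other KO libraries and 0.0563 to 0.217 CPM in the WT libraries. The 3 erythroid markers Mir144, Mir451a and Mir486 summed to 8.49 CPM there, against 3.80 and 3.23 CPM in the other KO libraries and 1.61 to 4.02 CPM in the WT libraries. That sum was mostly Mir451a, with 143, 353 and 85 reads (KO). Mir486, with 28, 48 and 60 reads (KO), was highest in KO replicate 3. In WT replicate 2 the muscle markers Mir133a-1 and Mir206 had no reads and Mir1a-1 had 7. The part of these cells in the level of the family was not tested.

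**Figure D3:**
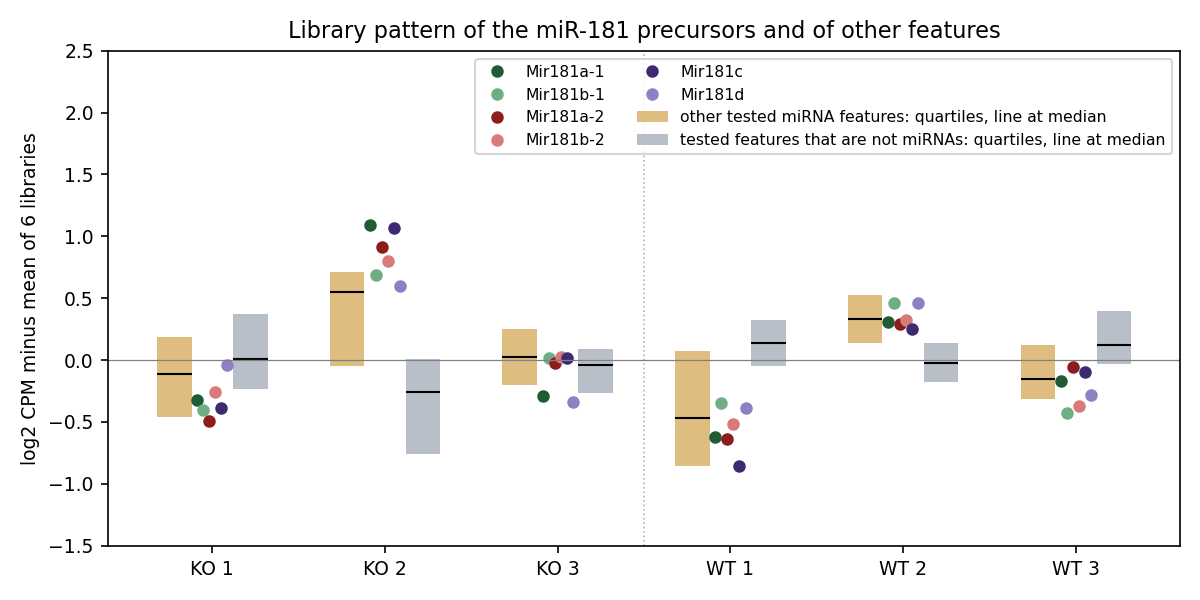
Log2 CPM of each precursor minus its mean over the 6 libraries (points), beside the quartiles and median of the 199 other tested miRNA features (yellow) and of the 419 tested features that are not miRNAs (grey). All 6 precursors peak in replicate 2 of both genotypes, where the median of the non-miRNA features lies below 0.

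Within the family the 3 clusters held similar proportions of its reads in every library. Cluster a-1/b-1 held 45.6%, 47.9% and 42.1% of the family's reads (KO) and 45.5%, 45.3% and 43.9% (WT). Cluster a-2/b-2 held 39.3%, 40.1% and 45.3% (KO) and 41.0%, 40.9% and 43.2% (WT). Cluster c/d held the least, with 15.1%, 12.0% and 12.6% (KO) and 13.5%, 13.8% and 12.8% (WT). The mean shares differed between the genotypes by less than the SD of the KO libraries for each cluster. For a-1/b-1 they were 45.2 ± 2.9% (KO) and 44.9 ± 0.9% (WT), for a-2/b-2 41.6 ± 3.3% (KO) and 41.7 ± 1.3% (WT), and for c/d 13.2 ± 1.6% (KO) and 13.4 ± 0.5% (WT) (SD, n = 3 each).

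The summed levels of the clusters were 14.8 ± 8.3 CPM (KO) and 11.9 ± 3.8 CPM (WT) for a-1/b-1, 13.4 ± 6.3 CPM (KO) and 11.0 ± 3.4 CPM (WT) for a-2/b-2, and 4.15 ± 1.69 CPM (KO) and 3.54 ± 1.21 CPM (WT) for c/d (SD, n = 3 each). The genotypes overlapped for all 3 sums. The log2 ratios of the means, KO over WT, were 0.32, 0.28 and 0.23, and without KO replicate 2 they were -0.23, -0.15 and -0.16. With replicate 2 left out of both genotypes, which was added once the values were known, they were 0.05, 0.10 and 0.15. Cluster a-1/b-1 had more reads than a-2/b-2 in 5 of 6 libraries, by at most 1.19-fold, and KO replicate 3 was the exception at 0.928. A split of reads from the shared 5p arms could also bring these sums close together, which was not tested. Cluster a-1/b-1 had 3.02 to 3.99 times the reads of c/d, and a-2/b-2 had 2.60 to 3.59 times the reads of c/d.

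The partners of a cluster were unequal, and which kind led differed between the clusters. Mir181a-1, the miR-181a copy, had 5.08, 6.29 and 3.88 times the reads of Mir181b-1 (KO) and 3.98, 4.29 and 5.76 times (WT). Mir181a-2 had 2.92, 3.70 and 3.32 times the reads of Mir181b-2 (KO) and 3.17, 3.36 and 4.29 times (WT). In cluster c/d it was the miR-181b-like partner that led. Mir181d had 2.17, 1.21 and 1.31 times the reads of Mir181c (KO) and 2.40, 1.96 and 1.49 times (WT).

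Divided by length, the leading partner's excess was a ratio of 4.49 ± 0.92 in cluster a-1/b-1, 4.05 ± 0.56 in a-2/b-2 and 2.17 ± 0.60 for Mir181d over Mir181c (SD over 6 libraries), and it was above 1 in 6 of 6 libraries in each cluster. The genotypes overlapped in all 3 ratios. The mean log2 ratio, KO minus WT, was 0.11 for a-1/b-1, -0.12 for a-2/b-2 and -0.34 for Mir181d over Mir181c. The exact two-sided permutation tests gave p = 0.8, 0.6 and 0.3, each 0.8 when adjusted over the 3 clusters, and 3 libraries against 3 cannot go below p = 0.1. Without KO replicate 2 these differences were -0.06, -0.20 and -0.18, and the second was 0.01 without WT replicate 3. Between the copies, Mir181a-1 had 1.30, 1.31 and 0.960 times the reads of Mir181a-2 (KO) and 1.17, 1.17 and 1.07 times (WT). Mir181b-1 had 0.747, 0.769 and 0.822 times the reads of Mir181b-2 (KO) and 0.929, 0.914 and 0.796 times (WT). Reads confined to the shared 5p arms could have been split between copies, so the counts of each copy are uncertain to that extent.

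**Figure D4:**
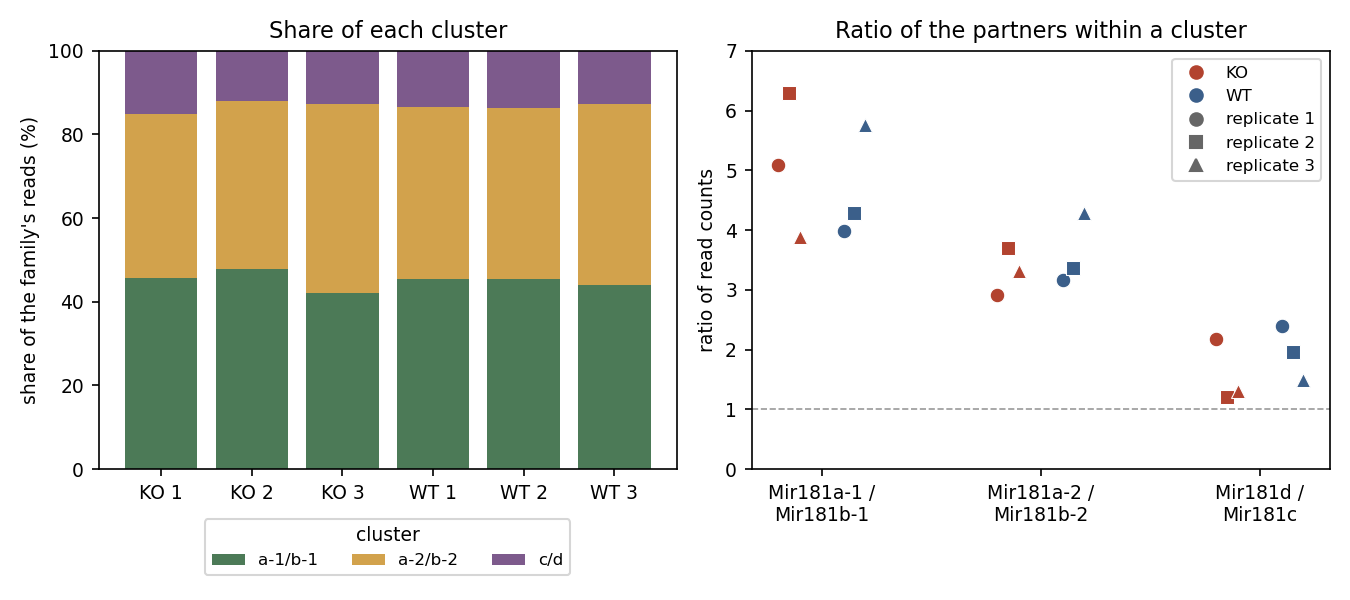
Left, the share of the family's reads (%) that each cluster held in each library. Right, the ratio of read counts of the partners in each cluster, with a point for each library and a dashed line at 1. Over the libraries a-1/b-1 holds 42.1% to 47.9%, a-2/b-2 39.3% to 45.3% and c/d 12.0% to 15.1%. All 18 ratios are above 1 with KO and WT points intermixed.

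The features whose levels followed Mir181a-1 most closely over the 6 libraries were found by the root-mean-square (RMS) difference of their mean-centred log2 CPM, among 623 features. Of the other members, Mir181a-2 came at place 2 (RMS 0.155), Mir181c at place 3 (0.165), Mir181b-2 at place 7 (0.201), Mir181d at place 24 (0.264) and Mir181b-1 at place 25 (0.265). The median over all features was 0.668, and over miRNA features it was 0.492. The cluster partner of Mir181a-1, 97 nt away, was thus farther from it by this measure than the miR-181a copy on chromosome 2. Reads of the 5p arm that both miR-181a copies share could have been split between them, which would make their patterns alike. Mir181b-1 also had fewer reads, 74 to 173 in a library against 289 to 832 for Mir181a-2, so its place carries more counting error. The comparison therefore cannot separate these from a difference in pattern. The 5 closest features outside the family were all miRNAs: Mir296 (0.146), Mir322 (0.182), Mir378a (0.188), Mir186 (0.195) and Mir450-1 (0.209). Of these Mir378a was the most abundant, with 587, 1210 and 640 reads (KO) and 570, 941 and 624 (WT). Mir296 had at most 28 reads in a library and Mir322 at most 30, so their places carry a large counting error. The ranking changed without KO replicate 2, an alternative added after the ranking was known. Over the remaining 5 libraries, 3 members were among the 30 closest features, against 5 with all libraries. Mir181a-2 then came at place 16 (RMS 0.146), Mir181d at 23 (0.157), Mir181b-2 at 26 (0.166), Mir181c at 31 (0.180) and Mir181b-1 at 41 (0.215), with a median of 0.418 over all features. Mir378a (place 2) and Mir296 (place 3) stayed among the 5 closest features, and Mir186, Mir322 and Mir450-1 came at places 19, 37 and 44.

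A list of 16 other miRNAs with roles in lymphoid development gave the setting. All 16 had reads, 14 passed the filter and none was called in edgeR's quasi-likelihood test or by DESeq2, with 2 (Mir150 and Mir128-1) at an unadjusted p under 0.05 in edgeR, where the share over all tested features was 6.41%. Of the 14, 13 had estimates above 0 and the median log2 fold change was 0.60, against 0.37 for the 6 miR-181 members and 0.16 for the 185 tested miRNA features outside both the family and the list. Of those 185 features, 115 had estimates above 0. Among the 14 of the list, 6 are precursors of the Mir17 cluster, so its count and median weight that locus 6 times. For the list, the count was 12 of 14 and the median 0.29 without KO replicate 2, and 12 of 14 and 0.40 without WT replicate 1. Over the 199 tested miRNA features outside the family the medians were then 0.036 and 0.039. Scaled to the summed reads of all miRNA features, the list had 11 of 14 above 0 and a median of 0.41. Mir150, which represses the transcription factor Myb in mouse B and T lineage cells, had 194, 279 and 288 reads (KO) and 37, 145 and 116 (WT) (log2 fold change 1.38, SE 0.54, adjusted p = 0.710). Mir146, which dampens inflammatory signalling in mouse immune cells, had 141, 181 and 143 reads (KO) and 7, 94 and 71 (WT) (1.46, SE 0.80, adjusted p = 0.730). The CPM of the genotypes did not overlap for Mir150 and Mir146, 2 of the 14, against 15.2% of all tested features. Mir128-1, with 31, 143 and 222 reads (KO) and 44, 49 and 41 (WT) (1.61, SE 0.64, adjusted p = 0.710), had the highest estimate of the list, with overlapping genotypes. Without KO replicate 2 the estimates were 1.36 (SE 0.62) for Mir150, 1.38 (SE 0.90) for Mir146 and 1.61 (SE 0.75) for Mir128-1, none of them called by edgeR (adjusted p = 0.962 for each). WT replicate 1 had the fewest reads of Mir150 and Mir146, and their estimates without that library are not given here.

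Members of the Mir17 cluster, which supports the survival of B cell progenitors in mice, also had estimates above 0 in the 6 tested precursors, with no call, but Mir19a was at -0.02 without KO replicate 2. Mir17 had 8.38 ± 2.75 CPM (KO) and 5.82 ± 1.80 CPM (WT) (log2 fold change 0.60, SE 0.36), and Mir20a had 11.7 ± 4.8 CPM (KO) and 8.03 ± 1.94 CPM (WT) (0.60, SE 0.37). Mir92-1 had 21.3 ± 0.7 CPM (KO) and 18.9 ± 5.5 CPM (WT) (0.24, SE 0.28). Mir155, needed for antibody responses in mature B cells, had 0.317 ± 0.122 CPM (KO) and 0.317 ± 0.167 CPM (WT) (0.09, SE 0.52). Mir15a had the 1 estimate below 0, at -0.33 (SE 0.30). Of the markers of blood cells, the myeloid pair Mir223 and Mir142 summed to 15.5 to 23.2 CPM (KO) and 9.68 to 21.1 CPM (WT), and the 7 primitive haematopoietic markers to 55.9 to 68.6 CPM (KO) and 39.8 to 89.6 CPM (WT). That last sum was mostly Mir10a, with a mean of 60.1 CPM (KO) and 58.0 CPM (WT), against 2.82 CPM (KO) and 2.79 CPM (WT) for the other 6 together. Among those, Mir125a had 17, 25 and 13 reads (KO) and 3, 10 and 6 (WT), with no overlap in CPM (log2 fold change 1.57, SE 0.51, unadjusted p = 0.0190 and adjusted p = 0.700 in edgeR), while the estimates were -0.26 (SE 0.93) for Mir10b and -0.02 (SE 0.45) for Mir99b. Mir126a, a marker of stem cells and endothelium, had 274, 394 and 821 reads (KO) and 29, 245 and 173 (WT), and its CPM did not overlap between the genotypes (log2 fold change 1.75, SE 0.80, adjusted p = 0.710 in edgeR). Over all tested features, 15.2% did not overlap in CPM and 6.41% had an unadjusted p under 0.05 in edgeR. Without KO replicate 2 the estimates were 1.94 (SE 0.90) for Mir126a and 1.34 (SE 0.56) for Mir125a. WT replicate 1 had the fewest reads of both, and their estimates without that library are not given here. None of the markers tested was called, and the part of these cell types in the level of the family was not tested.

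**Figure D5:**
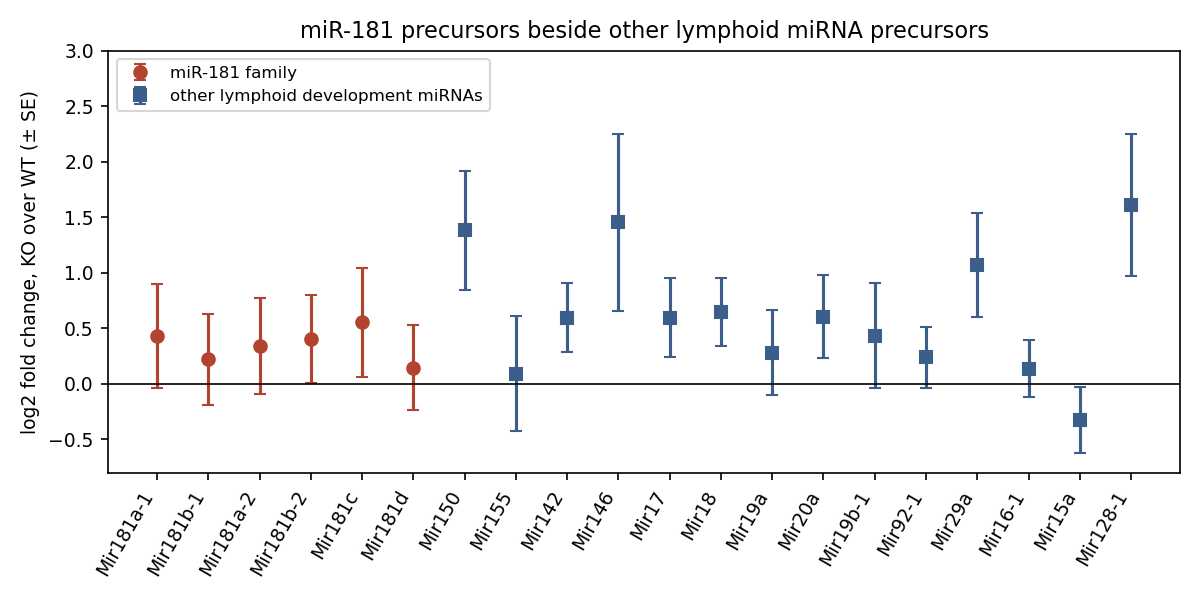
Log2 fold change of KO over WT with its SE for the 6 miR-181 precursors (red circles) and the 14 tested precursors of other lymphoid development miRNAs (blue squares). The miR-181 estimates lie between 0.15 and 0.55, within the range of the others, which runs from -0.33 for Mir15a to 1.61 for Mir128-1.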

How the data were processed

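Trizol RNA was made into small RNA libraries with an NEB kit, size-selected by gel and read on a NovaSeq, per the labels' protocols. Reads passed through Trimmomatic 0.38 and Bowtie2 2.3.4.1 with GRCm38, per the submitters' processing notes. The sources used here name no counting tool, annotation or strand setting. The deposited values are unnormalized read counts per feature, 1 table per library, that list features with at least 1 read; others were taken as 0. Features were matched to GENCODE M21 by position (1822 of 1823). Replicates differed beyond sampling noise (chi-square per degree of freedom 623 to 4034).

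The counts were tested with edgeR 4.0.16 in R 4.3.3, with TMM scaling, the default filter (minimum count 10, minimum total 15), KO against WT and Benjamini-Hochberg adjustment over the 624 features that passed, at a threshold of 0.05. An SE is the absolute log2 estimate over the root of its F statistic. DESeq2 1.42.0, other scalings and filters, a replicate block, summed copies and leaving out each library were alternatives; the pattern likeness and the lists were refitted without KO replicate 2 after the values were known. CPM is the count over the library total. Partner ratios had 0.5 counts added before taking logs. The scripts were tested on simulated data. The members and lists were chosen with earlier results of these data known. The text names the 6 members, the listed miRNAs and markers, and the 5 features closest in pattern to the member with the highest mean count.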

Additional observations from a re-analysis of the deposited data

How the results depend on the processing

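The 6 members were refitted under 15 alternatives each, and 84 of the 90 estimates kept the direction given in the report. The reversals were those without KO replicate 2, that of Mir181d scaled to all miRNA reads (-0.029) and that of Mir181d without WT replicate 1 (-0.01). Leaving out 1 library at a time, the log2 fold change ran from -0.17 to 0.78 for Mir181a-1, -0.10 to 0.57 for Mir181b-1, -0.13 to 0.71 for Mir181a-2, 0.06 to 0.71 for Mir181b-2, 0.03 to 0.93 for Mir181c and -0.15 to 0.47 for Mir181d. The partner log2 ratio, KO minus WT, ran from -0.057 to 0.29 in a-1/b-1, -0.20 to 0.015 in a-2/b-2 and -0.60 to -0.18 in c/d. The count of features called was 1 with all libraries and 0 to 1 with 1 left out (0 without KO replicate 3 or any 1 WT library), with 20 to 111 at an unadjusted p under 0.05. It was 13 of 1823 with no filter, none of them a member, and 0 with replicate 2 left out of both genotypes (27 at an unadjusted p under 0.05). DESeq2 called 1. With the replicate number as a block, edgeR called 0 features (46 at an unadjusted p under 0.05), and the member estimates were 0.14 to 0.49 with no call. Their SEs were 0.24 to 0.28 with the block, against 0.38 to 0.49 in the main fit. Without KO replicate 2, 3 members in place of 5 were among the 30 features closest in pattern to Mir181a-1. Whether the numbers pair the libraries is not stated. Deviations of same-numbered libraries had correlations of -0.13, 0.40 and -0.36. KO replicate 2 resembled WT replicate 2 most, while KO replicates 1 and 3 each resembled another WT number more. Deviations within 3 libraries sum to 0, so these correlations cannot decide the pairing. The median of all features was -0.08 with TMM, 0.02 with RLE, -0.16 with library totals and -0.24 scaled to miRNA reads. With same-arm copies summed, the estimates were 0.39 (SE 0.44) for miR-181a and 0.32 (SE 0.39) for miR-181b.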

Other observations

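Mir122, an abundant miRNA of liver cells, served as a marker of tissue that the samples should lack. Its reads numbered 0, 1 and 0 (KO replicates 1, 2 and 3) and 20, 23 and 0 (WT replicates 1, 2 and 3). The WT libraries that held it, replicates 1 and 2, had the lowest (18.9 CPM) and the highest (35.5 CPM) summed miR-181 level of their genotype.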
